A study of Mus musculus with 3 samples.

Results

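Natural killer (NK) cells were picked out of single-cell RNA profiles of arthritic mouse knee synovium, the lining tissue of the joint. A barcode counted as an NK cell when it held at least 2 molecules, counted as unique molecular identifiers (UMIs), of Ncr1, Klrb1c and Klre1 together. It also had to hold at most 1 UMI of the T cell receptor subunits Cd3e, Cd3d and Cd3g, and 0 UMIs of Csf1r and of Cd79a, which mark myeloid and B cells. Among 38722 barcodes with at least 200 detected genes and at most 20% mitochondrial UMIs, 107 met this rule, 29 in replicate 1, 43 in replicate 2 and 35 in replicate 3. The cells were thus chosen by measured UMIs of these genes, whose levels are given as a description, with no test.

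NK cells are innate lymphocytes that decide whether to kill through the balance of activating and inhibitory surface receptors. Inhibitory receptors, which in mice include most of the Ly49 (Klra) family and the CD94-NKG2A pair, read MHC class I on the target. Activating receptors such as NKG2D and NKp46 pass their signal through small adaptor proteins with tyrosine-based motifs. Killing itself relies on perforin and granzymes released from granules, and on death ligands such as Fas ligand. NK cells are also known for secreting interferon gamma and chemokines, and in arthritic joints they have been studied both as a source of bone-active cytokines and as regulators of other immune cells. Their tissue-resident relatives, type 1 innate lymphoid cells (ILC1), share NKp46 and NK1.1 (the product of Klrb1c), so the rule cannot tell NK cells and ILC1 apart.

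The series held 1 group of 3 libraries and no untreated animals. Each library pooled synovium of 2 female wild type C57BL/6 mice, 6 mice in all, used at 8 weeks of age. All had collagen- and antibody-induced arthritis (C&AIA), set up with 100 µg of type II collagen on day 0, 1 mg of anti-collagen antibody on day 21 and lipopolysaccharide on day 22, and knees were taken in the effector phase. Comparisons were therefore made between cell classes within the same libraries, and no value speaks to what arthritis did. Because mice were pooled, p-values reflect the spread of 3 libraries and not of 6 animals.

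NK cells made up 0.243% of kept barcodes in replicate 1 (95% exact binomial interval 0.163 to 0.349), 0.372% in replicate 2 (0.269 to 0.501) and 0.230% in replicate 3 (0.160 to 0.319). The mean was 0.282% ± 0.0785 (SD, n = 3), and the 3 intervals overlapped. Set against the NK and T cells together, NK cells were 9.97% in replicate 1, 15.7% in replicate 2 and 11.7% in replicate 3. Intervals and detection limits here cover counting error only. An NK cell held a median of 5206 UMIs from 1983 genes, and a T cell a median of 4197 UMIs from 1788 genes. In all, 703496 UMIs came from NK cells and 4357646 from T cells.

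Markers inside and outside the rule were read in each library. Klrb1c was detected in 96.3% of the 107 cells, Ncr1 in 68.2% and Klre1 in 65.4%, all by construction. Of the markers outside the rule, Gzma (granzyme A) was found in 78.5% of cells and Eomes, a transcription factor of NK cells, in 38.3%. Of the T cell markers outside the rule, Cd6 had 0 UMIs in NK cells. Cd5 was at 0, 0 and 5.56 UMIs per 1000000 UMIs of a class and library (CPM) in NK cells, against 160, 158 and 213 CPM in T cells. All 5 markers of mast cells and basophils were at 0 in NK cells, as were 5 of 6 dendritic cell markers. Monocyte or macrophage markers were not near 0. They summed to 962, 1202 and 2153 CPM in NK cells and 1181, 1579 and 1562 CPM in T cells. ILC3 markers summed to 16.7 to 19.8 CPM in NK cells and 149 to 226 CPM in T cells.

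Cells near the limit of the rule held Gzma and Prf1 less often than cells well inside it. The 24 cells with exactly 2 UMIs of the 3 NK genes held Gzma in 62.5% of cells and Prf1 in 45.8%. The 83 cells with 3 or more held Gzma in 83.1% and Prf1 in 61.4%. Eomes was found in 37.5% of the 24 and 38.6% of the 83, and Bcl11b, a transcription factor of T cells, in 12.5% of the 24 and 4.82% of the 83. The 98 cells just outside, with 1 such UMI, held Gzma in 14.3% and Prf1 in 8.16%. Another 25 barcodes failed only on Cd3, with 2 or more UMIs, and 36 failed on Csf1r or Cd79a.

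Part of the barcodes carried RNA of a second cell type. Using limits set after the values were seen (over 2% of UMIs from S100a8 and S100a9, over 2% from fibroblast markers, over 1% from monocyte or macrophage markers, or over 2% from erythroid markers), 12 NK barcodes and 119 T cell barcodes were mixed. The 12 were spread as 2, 7 and 3 over replicates 1, 2 and 3. Neutrophil markers summed to 3883, 14976 and 1975 CPM in NK cells, against 15365, 23076 and 4304 CPM in T cells. Without the mixed barcodes the same sums were 2081 to 3611 CPM in NK cells and 2295 to 3686 CPM in T cells. Fibroblast markers summed to 13096, 15917 and 10162 CPM in NK cells and 16183, 12991 and 10970 CPM in T cells. Without the mixed barcodes they lay at 3811 to 4133 CPM in NK cells and 4087 to 4291 CPM in T cells. Monocyte or macrophage markers then lay at 846 to 1140 CPM in NK cells and 755 to 1539 CPM in T cells. S100a8 was found in 95.3% of NK cells and 93.5% of T cells, and whether this was free RNA was not tested. The 95 remaining NK cells made up 0.249% ± 0.0544 of barcodes (SD, n = 3). Libraries 1 and 2 shared 2702 barcode names, 1 and 3 shared 2866 and 2 and 3 shared 2602, which are running labels, and 0 of the NK barcodes shared a name.

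T cells of the same knees served as the reference. They were 757 barcodes (262, 231 and 264) with at least 2 UMIs of the Cd3 genes, 0 of the 3 NK genes and 0 of Csf1r and Cd79a. Barcodes with at least 2 Cd3 UMIs and any UMI of the NK genes were thus left out. T cell levels of NK receptors and killing genes therefore hold only for this reference. UMIs were summed per class and library and tested with edgeR's quasi-likelihood test with the library as a block and Benjamini-Hochberg adjustment. A gene was called at an adjusted p under 0.05 and a log2 fold change of at least 1 in size. Of 8738 genes tested, 604 (6.91%) were called, 249 higher in NK cells (2.85%) and 355 lower (4.06%). The median log2 fold change of all tested genes was 0.00. Without the mixed barcodes 711 genes were called, 523 of them among the 604. Subtracting free RNA from the sums, up to an upper limit of 50.2% of NK cell UMIs and 80.8% of T cell UMIs in a library, left 250 genes called. Of the genes described here, only the named genes (chosen by a fixed rule or preset) were followed in that fit, and S1pr5 was not tested in it. Among those followed and described, the subtraction ended the calls of Cd226, Fasl, Il2rb, Il12rb2, Tbx21, Itga1, Xcl1, Ifng, Csf2 and Ifi27l2a, with no change of direction. Several of these folds were as large or larger after subtraction, among them Xcl1 at 6.14, Itga1 at 4.59 and Ifi27l2a at -5.37 on the log2 scale. With the mixed barcodes left out and free RNA subtracted, 558 genes were called, including all of these except Cd226 (adjusted p = 0.0587, edgeR).

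**Figure D1:**
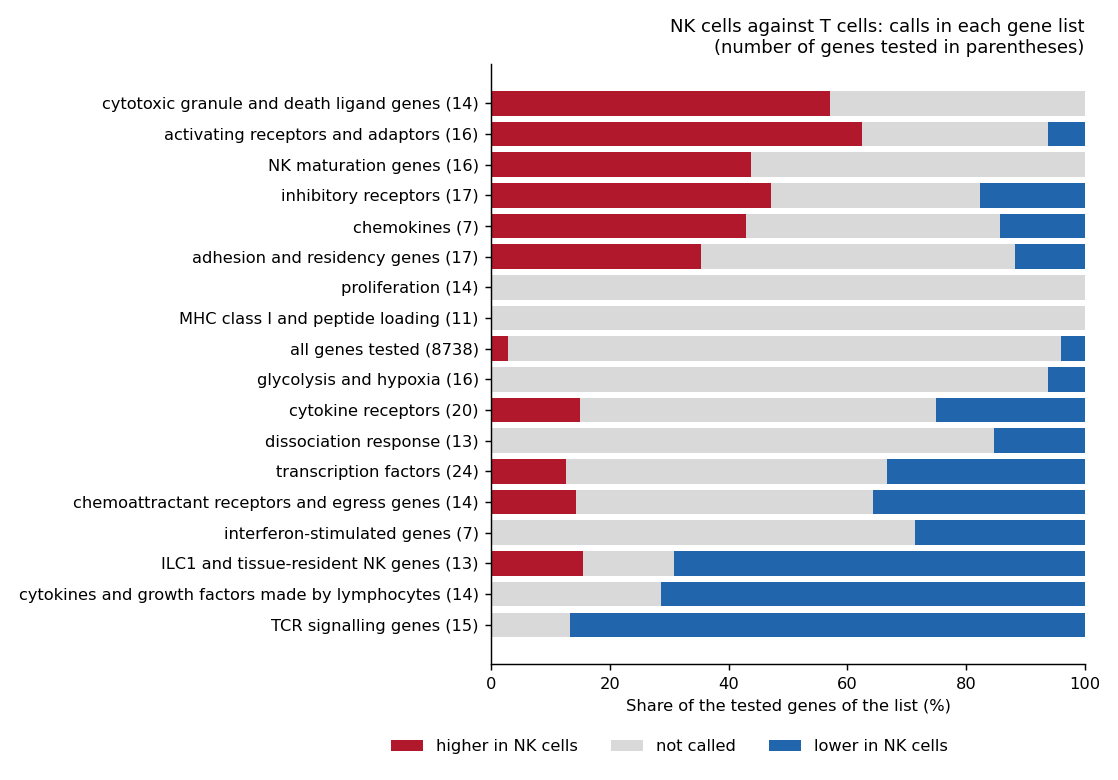
Share of tested genes in each list that were called higher (red), lower (blue) or not called (grey) in NK cells against T cells, from summed UMIs of 3 libraries. Lists are ordered by the share called higher minus the share called lower. The bar of all 8738 tested genes has 2.85% higher and 4.06% lower. Of the 16 activating receptors and adaptors 10 are called higher, and of the 14 lymphocyte cytokines 10 are called lower.

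Most activating receptors and adaptors were higher in NK cells. Of 16 activating receptors and adaptors tested, 10 were higher in NK cells, 1 was lower and 5 were not called, with a median log2 fold change of 2.02. Klrk1, which encodes NKG2D, stood at 367, 276 and 350 CPM in NK cells, against 21.3, 34.2 and 22.5 CPM in T cells. The groups did not overlap, and the log2 fold change was 3.69 ± 0.22 (SE, adjusted p = 1.1e-11). Klra8, the activating Ly49H receptor, had 203, 115 and 139 CPM in NK cells and 0 UMIs in T cells. That is at least 213-fold higher against a floor of 3 UMIs over the T cells of all libraries. Cd244, encoding 2B4, was at 124, 137 and 128 CPM in NK cells, against 4.60, 2.91 and 5.62 CPM in T cells (log2 fold change 4.89 ± 0.36).

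The adaptor genes Tyrobp, Fcer1g, Sh2d1a and Sh2d1b1 were also higher in NK cells, whereas Hcst, Cd247 and Sh2d2a were not called. Tyrobp (DAP12) was at 2970, 2425 and 2258 CPM in NK cells, against 652, 777 and 634 CPM in T cells, a log2 fold change of 1.92 ± 0.13. Myeloid cells share this gene: 99.5% of neutrophils held a Tyrobp UMI, and without the mixed barcodes the log2 fold change was 3.08. Fcer1g, the Fc receptor gamma chain, was at 1944, 1509 and 1791 CPM in NK cells and 335, 417 and 416 CPM in T cells (2.20 ± 0.14). Fcgr3, the CD16 receptor for antibody-dependent killing, was at 94.2, 62.1 and 94.6 CPM in NK cells, against 52.3, 46.6 and 74.6 CPM in T cells. The groups overlapped and it was not called (log2 fold change 0.57 ± 0.26, adjusted p = 0.21), whereas without the mixed barcodes it was called at 1.14. Neutrophils held an Fcgr3 UMI in 51.2% of cells, against 31.8% of NK cells. Cd226, encoding the activating receptor DNAM-1, was the 1 lower member, with 34.7, 52.8 and 16.7 CPM in NK cells and 71.3, 84.5 and 95.5 CPM in T cells (-1.13 ± 0.31, adjusted p = 0.021). That call was lost without replicate 1 and without replicate 3.

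Of 17 inhibitory receptors tested, out of 18 listed, 8 were higher in NK cells, 3 were lower and 6 were not called. Klra4 (Ly49D, listed with its family though it is an activating member) stood at 496, 286 and 434 CPM in NK cells and at 0 in T cells, at least 557-fold higher. The 25 barcodes that failed the NK rule only on Cd3, which the T cell rule also left out, held 11 Klra4 UMIs. Klra9 (Ly49I) was at 74.4, 86.9 and 172 CPM in NK cells and also at 0 in T cells. Klra7 (Ly49G) was at 139, 180 and 217 CPM in NK cells, against 3.45, 3.64 and 4.01 CPM in T cells. For these 3 members every NK library lay above every T cell library. Klra2 was at 4.96, 6.21 and 5.56 CPM in NK cells, with 27 UMIs in T cells, and Klra17 was at 0, 6.21 and 5.56 CPM in NK cells, with 26 UMIs in T cells. The members are close paralogs between which the counting may split reads, so the split among them is uncertain.

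The CD94-NKG2A pair, which reads Qa-1, was higher as well. Klrd1 (CD94) was at 382, 323 and 273 CPM in NK cells, against 15, 13.1 and 27.3 CPM in T cells (log2 fold change 4.22 ± 0.24). Klrc1 (NKG2A) was at 79.3, 106 and 72.3 CPM in NK cells and 9.20, 10.2 and 16.9 CPM in T cells (2.90 ± 0.36). The 3 lower members were Pdcd1, Ctla4 and Havcr2, while Tigit (1.10) and Cd96 (-0.12) were not called. Pdcd1 (PD-1) was at 4.96, 0 and 11.1 CPM in NK cells, against 61.0, 44.4 and 93.1 CPM in T cells, and Ctla4 was at 39.7, 27.9 and 22.2 CPM in NK cells, against 230, 243 and 343 CPM in T cells. Their log2 fold changes were -3.77 ± 0.55 (-4.62 without replicate 3) and -3.10 ± 0.26. Klrg1, an inhibitory receptor of mature NK cells, averaged 77.5 ± 14.2 CPM in NK cells and 44.5 ± 16.8 CPM in T cells (SD, n = 3 each). At 0.94 ± 0.30 it fell short of the fold limit, and it passed at 1.04 without the mixed barcodes and at 1.13 without replicate 3.

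**Figure D2:**
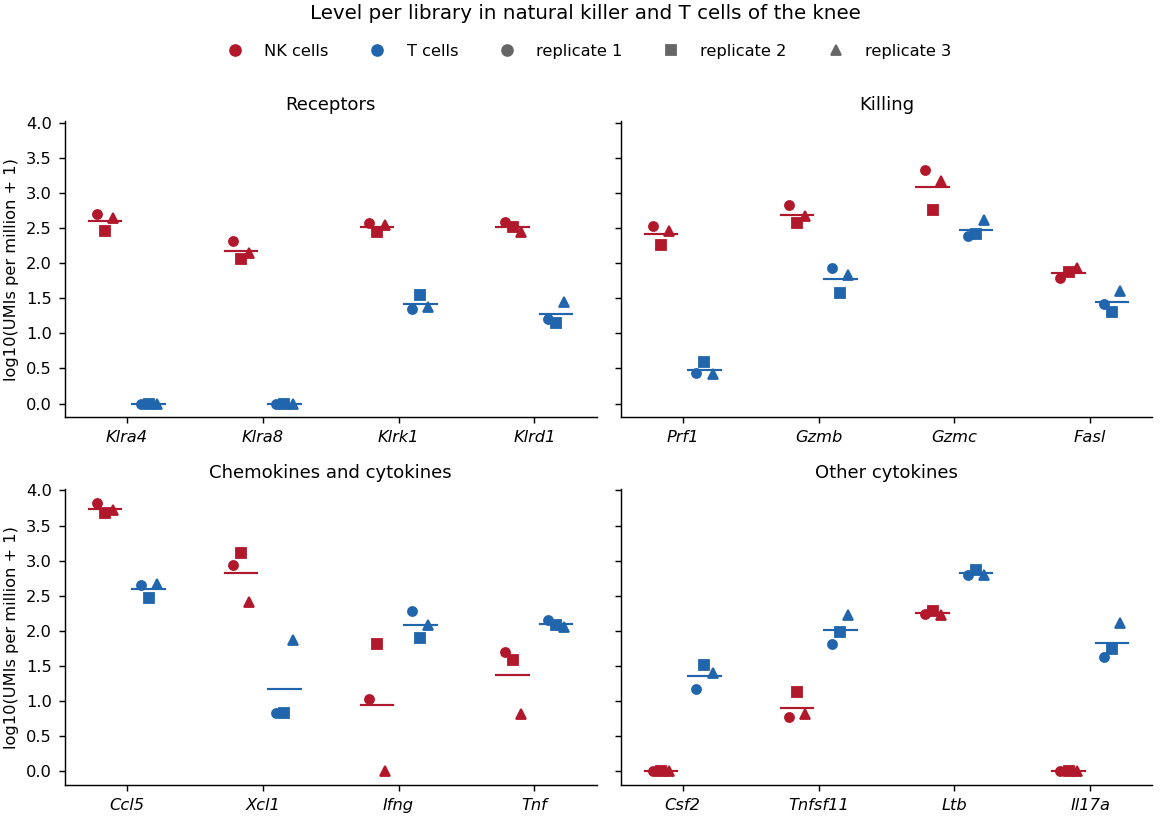
Level of 16 genes per library in NK cells (red, left of each pair) and T cells (blue), as log10 of CPM plus 1, with horizontal lines at the mean of 3 libraries. Klra4 and Klra8 lie at 0 in all T cell libraries, Csf2 and Il17a lie at 0 in all NK libraries, and Ifng in NK cells reaches 65.2 CPM in replicate 2 but 0 in replicate 3.

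The killing machinery was higher in NK cells across most of its list: 8 of 14 tested genes were called higher, none lower, with a median log2 fold change of 1.79. DESeq2 also called 8 higher and 0 lower, and 2 lay lower at an unadjusted p under 0.05 in edgeR. Prf1, which encodes perforin, stood at 337, 180 and 289 CPM in NK cells, against 1.73, 2.91 and 1.60 CPM in T cells. The log2 fold change was 6.96 ± 0.32 (adjusted p = 1.3e-13). A Prf1 UMI was found in 57.9% of NK cells, 1.2% of T cells and 0.1% of neutrophils. Gzmb, encoding granzyme B, was at 679, 366 and 467 CPM in NK cells, against 84.5, 36.4 and 66.6 CPM in T cells (3.07 ± 0.17). For both genes the lowest NK library lay above the highest T cell library.

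Other genes of the granule and its control followed. Nkg7, a granule membrane protein needed for degranulation, was at 1924, 1593 and 1385 CPM in NK cells and 278, 171 and 349 CPM in T cells. Serpinb9, which protects the killer from its own granzyme B, was at 114, 109 and 128 CPM in NK cells, against 15, 15.3 and 25.7 CPM in T cells. Fasl (Fas ligand) was at 59.5, 74.5 and 83.4 CPM in NK cells, against 24.7, 18.9 and 39.3 CPM in T cells (1.49 ± 0.32, adjusted p = 0.0023). None of these groups overlapped, although the Fasl call was lost without replicate 2, at 1.22. Tnfsf10, which encodes the death ligand TRAIL, was at 29.8, 18.6 and 16.7 CPM in NK cells and 29.9, 18.9 and 35.3 CPM in T cells and was not called.

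Gzmc (granzyme C) needs a separate word. It was at 2083, 574 and 1474 CPM in NK cells, against 241, 259 and 403 CPM in T cells, a log2 fold change of 2.10 ± 0.22. In replicate 1, however, 333 of the 420 Gzmc UMIs of NK cells came from 1 mixed barcode of 48443 UMIs. In replicate 2, 95 of 185 came from 1 mixed barcode. Without the mixed barcodes Gzmc was at 588, 423 and 1975 CPM in NK cells and 294, 376 and 476 CPM in T cells, and the log2 fold change was 1.18 ± 0.19, still called.

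Transcripts of the chemokines Ccl5 and Xcl1 were higher in NK cells. Ccl5, which draws T cells and monocytes, was at 6694, 4741 and 5190 CPM in NK cells, against 446, 297 and 472 CPM in T cells (3.83 ± 0.13, adjusted p = 6.7e-16). Xcl1, which attracts cross-presenting dendritic cells through XCR1, was at 868, 1295 and 261 CPM in NK cells, against 5.75, 5.83 and 72.2 CPM in T cells. The groups did not overlap for either gene, but Xcl1 varied more between libraries (5.15 ± 0.59, adjusted p = 6.7e-07). Its log2 fold change was 7.5 without replicate 3 and 4.13 without replicate 2.

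Of 7 chemokines tested 3 were higher, 1 was lower and 3 were not called. The macrophage inflammatory chemokines Ccl3 and Ccl4 were among the 3 not called. Ccl4 was at 426, 186 and 66.7 CPM in NK cells, against 128, 101 and 223 CPM in T cells, so the groups overlapped (0.65 ± 0.32, adjusted p = 0.28). It was called at 1.05 without the mixed barcodes, at 1.36 without replicate 3, and was at -0.06 without replicate 1. Ccl3 was at 54.5, 86.9 and 83.4 CPM in NK cells and 63.3, 76.5 and 134 CPM in T cells. Its log2 fold change, -0.17 ± 0.25, turned to 0.59 without the mixed barcodes. Ccl1, a ligand of CCR8, was at 4.96, 0 and 0 CPM in NK cells, against 120, 41.5 and 382 CPM in T cells, with a log2 fold change of -6.53 that was -9.98 without replicate 1 and -5.12 without replicate 3.

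Cytokine transcripts lay on the T cell side. Of 14 cytokines and growth factors tested, out of 18 listed, 10 were lower in NK cells, none was higher and 4 were not called, with a median log2 fold change of -1.89. DESeq2 called 7 lower and 0 higher, and at an unadjusted p under 0.05 in edgeR 11 were lower and 0 higher. The same 10 were called without the mixed barcodes. They included the interferon gamma gene, Ifng, at 9.92, 65.2 and 0 CPM in NK cells, against 191, 77.2 and 120 CPM in T cells. Every NK library lay below every T cell library, and 21 of the 23 NK UMIs came from replicate 2. The log2 fold change of -1.90 ± 0.45 (adjusted p = 0.0063) was -4.84 without replicate 2 and not called, at -1.19, without replicate 1. An Ifng UMI was found in 13.1% of NK cells and 13.2% of T cells, and by library in 6.90%, 27.9% and 0% of NK cells and 13.4%, 9.52% and 16.3% of T cells. With each cell thinned to 1000 UMIs the shares were 0.93% of NK cells and 4.89% of T cells.

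Tnf, Tnfsf11, Csf2 and Il17a were also among the 10, while Osm (-0.33) and Tnfsf14 (-1.45) were not called. Tnf was at 49.6, 37.3 and 5.56 CPM in NK cells, against 144, 122 and 113 CPM in T cells (-1.94 ± 0.31). Tnfsf11, encoding the osteoclast-inducing factor RANKL, was at 4.96, 12.4 and 5.56 CPM in NK cells, against 63.8, 96.2 and 166 CPM in T cells (-3.56 ± 0.41, with -4.31 without replicate 2 and -5.85 without the mixed barcodes). Csf2 (GM-CSF) had 0 UMIs in NK cells and 13.8, 31.3 and 24.1 CPM in T cells, at least 5.22-fold lower. Il17a likewise had 0 UMIs in NK cells and 42.0, 53.9 and 130 CPM in T cells, at least 16.6-fold lower. Neither Csf2 nor Il17a was seen in any of the 107 NK cells, which allows a share of cells with a UMI of up to 2.80%.

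Ltb, the lymphotoxin beta gene, was found in NK cells at a lower level, with 174, 189 and 167 CPM in NK cells, against 615, 744 and 629 CPM in T cells (-1.87 ± 0.16). Flt3l, a growth factor of dendritic cells, was at 69.4, 40.4 and 55.6 CPM in NK cells and 43.7, 33.5 and 48.9 CPM in T cells and was not called.

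Cytokine receptor genes differed in both directions. Of 20 tested, 3 were higher in NK cells, 5 lower and 12 not called, with a median log2 fold change of -0.16. Il2rb, the beta chain shared by the IL-2 and IL-15 receptors, was at 466, 326 and 512 CPM in NK cells, against 141, 125 and 199 CPM in T cells (1.53 ± 0.16). Il12rb2, a chain of the IL-12 receptor, was at 124, 121 and 94.6 CPM in NK cells, against 43.1, 22.6 and 56.2 CPM in T cells (1.62 ± 0.28). Il2ra, the alpha chain of the IL-2 receptor, was at 19.8, 18.6 and 11.1 CPM in NK cells, against 151, 103 and 126 CPM in T cells (-2.81 ± 0.32). Il7r fell to 19.8, 3.11 and 61.2 CPM in NK cells, against 166, 173 and 183 CPM in T cells (-2.85 ± 0.37). Il18r1, a chain of the IL-18 receptor, was not called (-0.11 ± 0.19), with 114, 177 and 178 CPM in NK cells and 141, 173 and 210 CPM in T cells. Il23r, the IL-23 receptor of IL-17-producing cells, was at 0, 0 and 5.56 CPM in NK cells, against 47.2, 62.7 and 61.8 CPM in T cells (-5.17 ± 0.72). With so few NK UMIs it moved to -8.69 without replicate 3 and to -4.24 without replicate 2.

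Homing and adhesion genes differed in both directions. Among 14 chemoattractant receptors and egress genes tested, out of 16, 2 were higher in NK cells and 5 lower. S1pr5, the sphingosine phosphate receptor that lets mature NK cells leave tissues, was at 24.8, 31.1 and 16.7 CPM in NK cells and at 0 in T cells, at least 37.2-fold higher. Cxcr6, which marks resident lymphocytes, was at 9.92, 46.6 and 27.8 CPM in NK cells, against 254, 238 and 286 CPM in T cells (-3.03 ± 0.28, and -3.81 without replicate 2). Ccr6 was at 0, 0 and 5.56 CPM in NK cells and 47.2, 53.9 and 48.9 CPM in T cells, at -4.98 ± 0.75 in all libraries, -8.54 without replicate 3 and -4.07 without replicate 2. Cxcr3 and Cx3cr1 were not called. Cxcr3 was at 34.7, 24.8 and 33.4 CPM in NK cells and 51.8, 22.6 and 39.3 CPM in T cells, and Cx3cr1 was at 84.3, 43.5 and 16.7 CPM in NK cells and 27.6, 41.5 and 43.3 CPM in T cells.

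Of 17 adhesion and residency genes, 6 were higher and 2 lower. The collagen-binding integrins were among the 6. Itga2 (CD49b, the integrin behind the DX5 marker) was at 64.5, 55.9 and 55.6 CPM in NK cells, against 4.03, 6.56 and 7.22 CPM in T cells (3.34 ± 0.45). Itga1 (CD49a, carried by tissue-resident NK cells and ILC1) was at 104, 83.8 and 27.8 CPM in NK cells, against 13.8, 13.8 and 15.2 CPM in T cells (2.36 ± 0.39). Itgax (CD11c) was at 119, 62.1 and 66.7 CPM in NK cells and 5.18, 7.29 and 6.42 CPM in T cells. Itgam (CD11b), also a neutrophil gene, was at 134, 152 and 117 CPM in NK cells, against 62.1, 80.9 and 56.2 CPM in T cells, with a log2 fold change of 1.05 ± 0.21 that was 2.11 without the mixed barcodes. Itgae (CD103) was at 4.96, 3.11 and 0 CPM in NK cells, against 55.8, 60.5 and 40.1 CPM in T cells (-4.15 ± 0.62, and -4.90 without the mixed barcodes).

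Among 24 transcription factors, 3 were higher in NK cells, 8 lower and 13 not called. Irf8, needed for NK cell maturation, was at 471, 351 and 740 CPM in NK cells, against 36.2, 14.6 and 52.2 CPM in T cells (4.01 ± 0.20, adjusted p = 2.5e-13). Tbx21 (T-bet), the driver of type 1 lymphocyte programmes, was at 198, 220 and 189 CPM in NK cells, against 62.7, 77.2 and 98.7 CPM in T cells (1.42 ± 0.20). Neither gene overlapped between the classes. Bcl11b, which fixes T cell identity, was at 24.8, 18.6 and 5.56 CPM in NK cells, against 394, 471 and 494 CPM in T cells. Rora, shared by ILC2, ILC3 and tissue T cells, was at 59.5, 80.7 and 111 CPM in NK cells, against 479, 506 and 506 CPM in T cells (-2.55 ± 0.20).

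Genes of NK maturation were called higher in 7 of 16 and lower in none, with a median log2 fold change of 0.87. DESeq2 called 4 higher and 0 lower, and 2 lay lower at an unadjusted p under 0.05 in edgeR. The 7 included Cma1, a chymase that mature mouse NK cells carry, at 64.5, 49.7 and 50.1 CPM in NK cells and 1 UMI in T cells, and Ly6c2, at 402, 435 and 228 CPM in NK cells and 154, 192 and 113 CPM in T cells. Also among the 7 was Kit, the stem cell factor receptor of immature cells, at 14.9, 31.1 and 27.8 CPM in NK cells and 5.75, 5.10 and 5.62 CPM in T cells. Cd27, which mouse NK cells lose as they mature, was not called, with 29.8, 43.5 and 61.2 CPM in NK cells and 31.1, 43.0 and 44.9 CPM in T cells.

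Genes typical of ILC1 and tissue-resident NK cells were mostly lower in NK cells than in T cells, at 9 of 13 tested against 2 higher, which were Itga1 and Gzmc. Several of the 9, such as Il7r, Rora, Cxcr6 and Ltb, are also known in tissue T cells, so the count sets NK cells against those and not against circulating NK cells. None of 14 proliferation genes was called by edgeR or DESeq2, with 2 higher and 1 lower at an unadjusted p under 0.05, and without the mixed barcodes 1, Rrm2, was called lower. Mki67 was at 248, 115 and 38.9 CPM in NK cells and 115, 87.4 and 98.7 CPM in T cells. Its log2 fold change of 0.40 was -0.55 without the mixed barcodes, 1 of which held 43 of the 50 UMIs of replicate 1. Of 7 interferon-stimulated genes tested, out of 15, 2 were lower. Among them was Ifi27l2a, at 14.9, 24.8 and 106 CPM in NK cells and 378, 411 and 570 CPM in T cells. The log2 fold change of Ifi27l2a, -3.35 ± 0.27, was -4.24 without replicate 3 and -4.34 without the mixed barcodes.

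None of 11 MHC class I and peptide loading genes was called by edgeR or DESeq2, with 3 lower at an unadjusted p under 0.05 (median log2 fold change -0.17). B2m, the common light chain, was at 2752, 2198 and 2347 CPM in NK cells and 2732, 2337 and 2409 CPM in T cells. Of 16 glycolysis and hypoxia genes 1 was lower, Slc16a3, a lactate transporter, and that call was lost without the mixed barcodes. At an unadjusted p under 0.05, 7 of the 16 were lower and 0 higher. Of 13 tested genes that respond to tissue dissociation, 2 were lower in NK cells, Fos and Nr4a1, and Fos was no longer called without the mixed barcodes. At an unadjusted p under 0.05, 11 of the 13 were lower and 0 higher. Nr4a1 was at 9.92, 24.8 and 16.7 CPM in NK cells, against 103, 106 and 108 CPM in T cells. This list is a sign of handling, and whether dissociation acted differently on the 2 classes was not tested. Of 15 T cell receptor signalling genes 13 were lower, and the rule itself had asked for few Cd3 UMIs. Themis had 0 UMIs in NK cells and 201, 178 and 339 CPM in T cells, at least 54.6-fold lower, whereas Lck, the kinase at the top of the pathway, was not called, with 218, 155 and 222 CPM in NK cells and 246, 237 and 355 CPM in T cells.

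CD8 T cells, the other killer lymphocytes, were a closer reference. They were the T cells with a Cd8a or Cd8b1 UMI and no Cd4, 63 barcodes in all. Only replicates 1 and 3 reached the minimum of 20 per library, replicate 2 having 19. With those 2 libraries 14 of 2664 tested genes were called (0.526%), 8 higher in NK cells (0.3%) and 6 lower (0.225%). With replicate 2 added, 75 were called, 34 higher and 41 lower.

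The 8 higher genes included Prf1, at 337, 180 and 289 CPM in NK cells, against 16.2, 11 and 19 CPM in CD8 T cells (log2 fold change 4.04 ± 0.43). Xcl1 was among them, at 868, 1295 and 261 CPM in NK cells, against 32.4, 65.8 and 19 CPM in CD8 T cells (4.31 ± 0.39). So was Gzmc, at 2083, 574 and 1474 CPM in NK cells, against 64.9, 0 and 0 CPM in CD8 T cells, which rests in part on the mixed barcodes described above. Klra4, Klrb1b, Irf8, Klrk1 and Tyrobp completed the 8. Klrk1 was at 367, 276 and 350 CPM in NK cells and 56.8, 186 and 57.1 CPM in CD8 T cells, and was not called with 3 libraries. Adjusted p-values of the 14 genes lay between 0.023 and 0.048, and the 6 lower genes included Themis, Bcl11b, Atxn1, Gramd3 and Mgp, the last being a fibroblast gene whose call was lost with 3 libraries.

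Several genes that separated NK cells from T cells as a whole were not called against CD8 T cells. Ccl5 was at 6694, 4741 and 5190 CPM in NK cells and 3819, 2181 and 3235 CPM in CD8 T cells (0.69). Nkg7 was at 1924, 1593 and 1385 CPM in NK cells and 1354, 1019 and 1027 CPM in CD8 T cells (0.41). Gzmb was at 679, 366 and 467 CPM in NK cells, against 195, 241 and 190 CPM in CD8 T cells, where the groups did not overlap but the change of 1.5 was not called. With all 3 libraries and the mixed barcodes left out it was called, at 1.16 ± 0.25 (adjusted p = 0.0023, edgeR). With 20 and 24 CD8 T cells in the 2 libraries, a missed call does not show that the levels were equal.

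NK cells held 0.199%, 0.323% and 0.155% of all UMIs in replicates 1, 2 and 3, but a far larger part of certain transcripts of the joint. They held 71.1% ± 8.33 of all Klra4 UMIs (SD, n = 3), 58.3% ± 5.35 of those of Prf1 and 57.4% ± 1.42 of those of Gzma. T cells, the larger class, held 2.89% of Prf1. Another 20 Prf1 and 436 Gzma UMIs lay in the 25 barcodes that failed the NK rule only on Cd3 and were in neither class. NK cells held 28.0% ± 0.79 of Gzmb and T cells 23% ± 9.39. For other killing genes the T cell share was the larger. NK cells held 16.9% of Fasl and T cells 37.3%, and for Nkg7 the shares were 22.4% and 24.9%. Of Gzmc, NK cells held 20.4% (10.3% without the mixed barcodes) and T cells 30.9%. For Xcl1 the NK share was 39.5%, 55.3% and 21.4% by replicate, lowest in replicate 3. The T cell share of Xcl1 was 2.26%, 1.06% and 40.9%, so in replicate 3 T cells held more of it than NK cells.

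For secreted factors the picture was mixed. NK cells held 8.59% ± 5.31 of Ccl5 UMIs and T cells 3.53%, so most Ccl5 was found in neither. Of Ifng, NK cells held 0.41%, 12.6% and 0% by replicate and T cells 64.4% ± 3.52. Of Csf2, NK cells held 0% and T cells 54.7%. Of Tnf, NK cells held 0.12% and T cells 2.86%. These shares depend on both the number of cells caught and the RNA per cell, which cannot be told apart here.

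**Figure D3:**
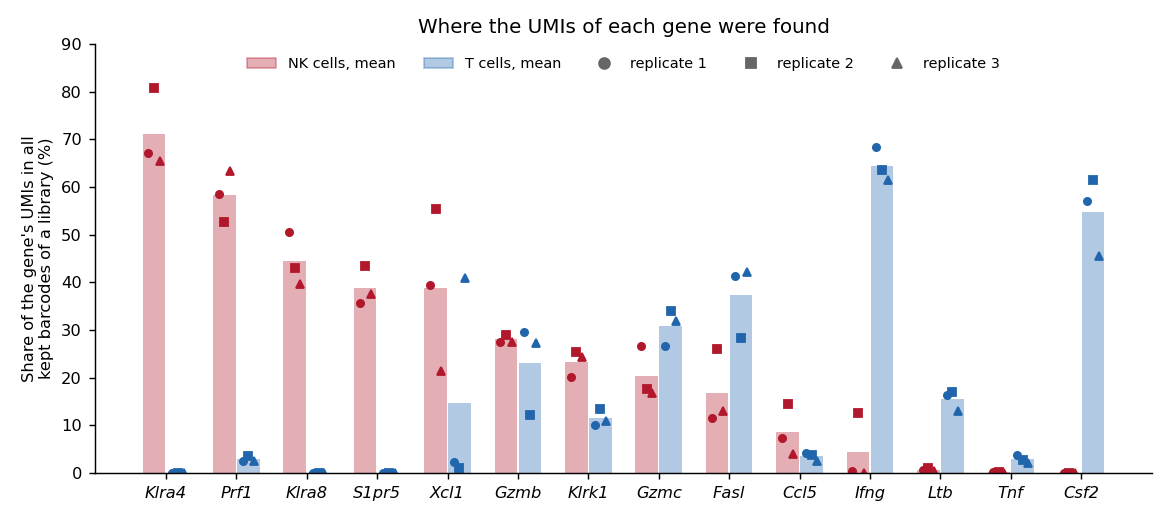
Share of the UMIs of each gene, over all kept barcodes of a library, that lay in NK cells (red) and T cells (blue); bars are means of 3 libraries and points are libraries. NK cells hold 71.1% of Klra4 and 58.3% of Prf1, and T cells hold 64.4% of Ifng and 54.7% of Csf2.

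Within the 107 cells, Eomes and Itga1 were rarely found together. Eomes was found in 41 cells and Itga1 in 24, and 1 cell held both. Itga1 was therefore seen in 1 of 41 cells with Eomes and in 23 of 66 without. The pattern was present in each library, with 0, 1 and 0 cells holding both in replicates 1, 2 and 3, and it was 1 of 39 against 18 of 56 without the mixed barcodes. In mice, Eomes is known to mark conventional NK cells and CD49a without Eomes to mark ILC1, but 43 cells held neither gene, and with a median of 5822 UMIs in cells with Eomes and 4373 in those without, absence of a UMI is not absence of the transcript. These and the following splits were chosen after their values were seen and have no test. In each library at least 1 side of a split had under 20 cells.

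Ly49 members differed in how they lay between cells with and without an Eomes UMI. Klra7 was at 327, 421 and 265 CPM in cells with an Eomes UMI, against 24.0, 75.6 and 168 CPM in cells without. Klra4 was at 693, 360 and 796 CPM in cells with Eomes and 375, 254 and 67.2 CPM in cells without. Klra9 was at 131, 185 and 232 CPM in cells with Eomes and 39.9, 44.5 and 112 CPM in cells without. Klra8 overlapped, at 222, 164 and 155 CPM in cells with Eomes and 192, 93.4 and 123 CPM in cells without, as did Klra1 and Klra3. Rora was at 0, 0 and 33.2 CPM in cells with Eomes, against 95.9, 116 and 190 CPM in cells without, and Cxcr6 was at 0 in cells with Eomes and at 16, 66.7 and 56.0 CPM in cells without. For Klra7, Klra9, Rora and Cxcr6 the 3 values of one side lay beyond the 3 of the other. For Klra4, replicate 2 with Eomes (360) fell below replicate 1 without (375). These CPM include the mixed barcodes. Leaving those out took cells without Eomes from 66 to 56, and their UMIs from 439237 to 244281. Cells with Eomes went from 41 to 39, and their UMIs from 264259 to 250602. The part of other cells' RNA in these differences was not tested.

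**Figure D4:**
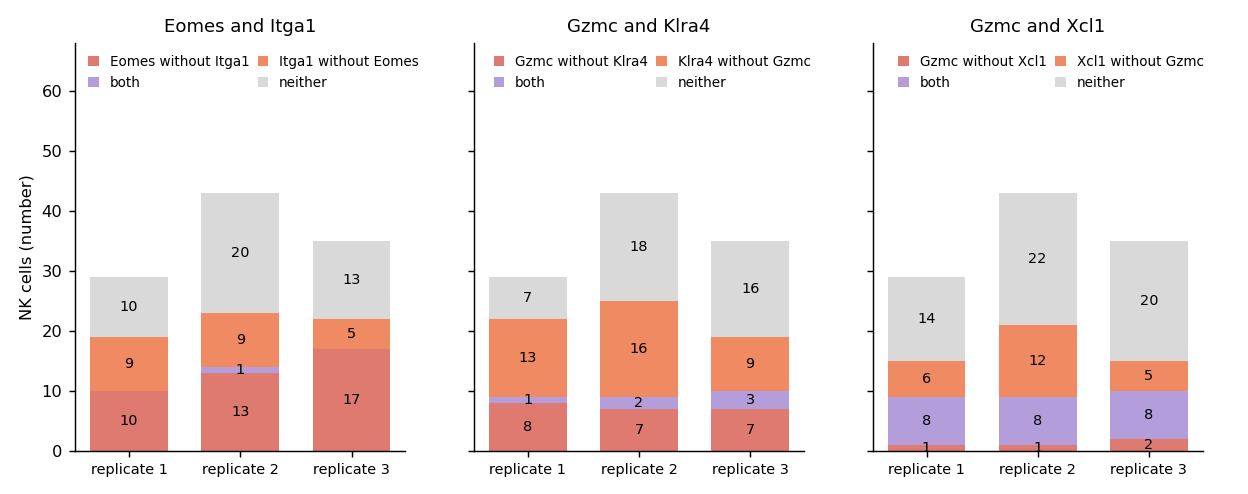
Number of NK cells per library with a UMI of the first gene alone, the second alone, both, or neither, for Eomes and Itga1, Gzmc and Klra4, and Gzmc and Xcl1. Eomes and Itga1 meet in 1 of 107 cells, whereas Xcl1 was found in 24 of the 28 cells with Gzmc.

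The cells were also split by Gzmc, found in 28 cells, 9, 9 and 10 by replicate. This split overlapped in part with Itga1, as 11 of 24 cells with Itga1 and 17 of 83 without held Gzmc. Cells with Gzmc had a median of 6498 UMIs and those without 4881, so counts of cells were not taken at equal depth. Xcl1 was found in 24 of the 28 cells with Gzmc and in 23 of the other 79. Klra4 was found in 6 of the 28 and in 38 of the 79. Ccl5 was at 660.4, 1318 and 665 CPM in cells with Gzmc, against 11794, 5939 and 7379 CPM in cells without, so the highest cell group with Gzmc lay below the lowest without. Zeb2, a factor of terminal NK maturation, was at 130, 132 and 102 CPM in cells with Gzmc, against 457, 453 and 371 CPM in cells without. Cma1 and S1pr5 had 0 UMIs in cells with Gzmc and 38 and 18 UMIs in cells without.

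Other transcripts were more abundant beside Gzmc. Ltb was at 238, 359 and 426 CPM in cells with Gzmc, against 119, 130 and 41.3 CPM in cells without. Thy1 was at 812, 647 and 887 CPM in cells with Gzmc, against 512, 243 and 305 CPM in cells without. Rora was at 130, 120 and 256 CPM in cells with Gzmc and 0, 67.1 and 41.3 CPM in cells without, and Ikzf2, which encodes Helios, was at 108, 108 and 273 CPM in cells with Gzmc and 18.3, 54.5 and 90.8 CPM in cells without. For these 4 genes the sides did not overlap, but without the mixed barcodes Ikzf2 did, at 182, 105 and 273 CPM in cells with Gzmc and 19.2, 83.5 and 119 CPM in cells without. Prg4, a fibroblast gene, was at 12851, 527 and 529 CPM in cells with Gzmc and 448, 1446 and 2493 CPM in cells without. Without the mixed barcodes Prg4 was at 387, 492 and 529 CPM in cells with Gzmc and 452, 392 and 542 CPM in cells without, and the part of other cells' RNA in these differences was not tested. Without the mixed barcodes Ccl5 was at 1389, 1845 and 665 CPM in cells with Gzmc and 11886, 8801 and 10795 CPM in cells without.

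**Figure D5:**
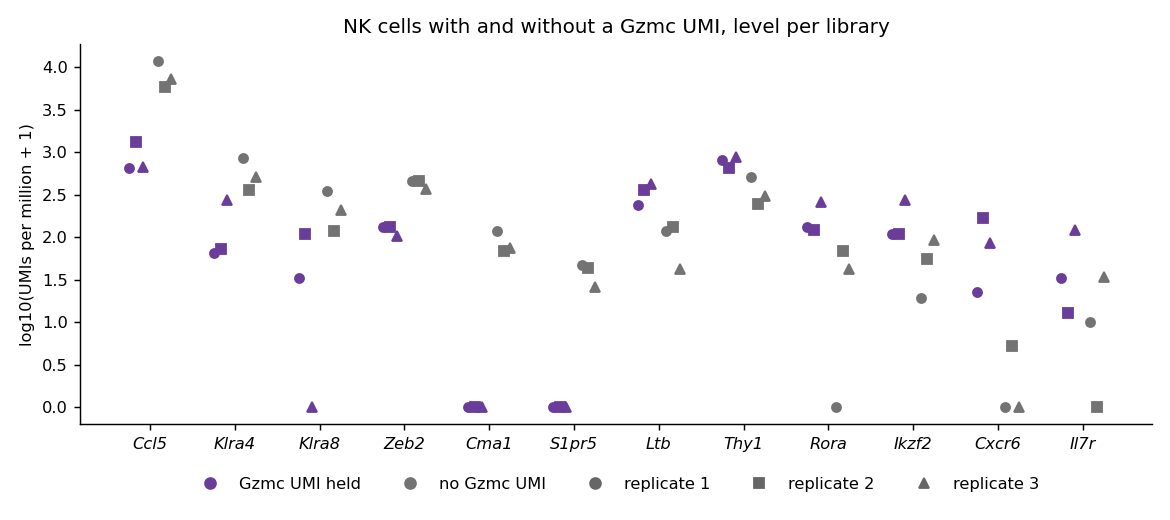
Level of 12 genes in NK cells with a Gzmc UMI (purple) and without (grey), per library, as log10 of CPM plus 1. Ccl5, Zeb2, Cma1 and S1pr5 are lower beside Gzmc in each library, and Ltb, Thy1, Rora, Ikzf2 and Cxcr6 are higher.

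Ly49 receptors were spread unevenly over single cells. At least 1 Ly49 UMI was found in 71 cells and none in 36. Of the 71, 22 cells held 1 member, 19 held 2, 14 held 3, 11 held 4 and 5 held 5. Klra4 was found in 44 cells, Klra7 in 35, Klra8 in 27, Klra9 in 20, and Klra1 and Klra3 in 14 each. Klra4 and Klra8 met in 21 cells. Shallow sampling lowers all these counts, and reads split between paralogs could raise them.

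Itgam and Cd27, whose proteins stage mouse NK cells from CD27-positive to CD11b-positive, were found in 52 and 21 cells. Itgam alone was found in 41 cells, Cd27 alone in 10, both in 11 and neither in 45. Without the mixed barcodes these counts were 34, 10, 10 and 41. An Itgam UMI was also found in 61.6% of neutrophils and 20.5% of T cells. Mki67 was found in 15 cells and Top2a, a topoisomerase of dividing cells, in 22, with 11 holding both. Without the mixed barcodes Mki67 was found in 11 of 95 cells and Top2a in 17, with 7 holding both.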

How the data were processed

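Counts are UMIs per gene and barcode as the authors deposited them, made with PISA 1.0 per the file headers. The submitters' processing notes name Seurat 3.0.2, R 3.6 and the build GRCm39 (mm39). The aligner is not given in the sources used here. Barcodes with under 200 genes or over 20% mitochondrial UMIs were left out. Members, lists and tests were chosen with earlier results of these data known.

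Counts were summed per library and class, at least 20 cells a sum, and tested in R 4.3.3 with edgeR 4.0.16 (filterByExpr, TMM, quasi-likelihood, Benjamini-Hochberg), after a test on simulated data. DESeq2 1.42.0 was an alternative and doublets were scored with Scrublet in scanpy 1.11.5. The library was a block because both classes came from the same mice; deviations of NK and T cells correlated at 0.06, 0.16 and 0.17. Genes of the rule, Gzma and Eomes were left out of calls. CPM are UMIs per 1000000 of a class's summed UMIs, not corrected for length. Libraries totalled 99782608 to 116125707 UMIs, and 3 UMIs of NK cells, the floor, are 4.26 CPM.

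Named genes were, per list and direction, the called gene of largest change with at least 20 CPM and the same direction in 3 libraries, plus a preset set of cytokines, receptors and killing genes. Further list members and the splits within NK cells were chosen after their values were seen. Sequences and coordinates are not used here. A few listed genes are counted in their lists but not reported here by name.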

Additional observations from a re-analysis of the deposited data

How the results depend on the processing

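Against T cells, 604 genes were called, and 345 with DESeq2, 250 with free RNA subtracted and 55 with cells thinned to 1000 UMIs, where 621 genes were tested. Leaving out 1 library gave 467 to 587. Without the replicate block that pairs classes of a library the count was 552. Against CD8 T cells 14 were called, and 52 with library totals alone, 137 with no filter on low counts, 41 with no replicate block and 68 with a stricter NK rule of at least 3 UMIs and no Cd3. With a minimum of 10 cells, which brings in replicate 2, the count was 75, and 77 without likely doublets, 149 without mixed barcodes and 135 without them after free RNA was subtracted. Those fits gave 11 without replicate 1 and 59 without replicate 3. The cause was not tested. The NK share of 0.282% was 0.203% under the stricter rule and 0.544% with 1 UMI of the NK genes.

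Genes that were not called changed sign. Leaving out 1 library gave log2 fold changes of -0.43 to 0.046 for Ccl3 (-0.17), -0.061 to 1.36 for Ccl4 (0.65), -0.33 to 0.84 for Cx3cr1 (0.41), -0.38 to 0.0021 for Cxcr3 (-0.20) and -0.12 to 0.79 for Mki67 (0.40). Ccl3 was at 2.22 with free RNA subtracted, 0.59 without mixed barcodes and 0.91 with both. Mki67 was at -0.16 with free RNA subtracted, -0.55 without mixed barcodes and -0.64 with both. Cd27 (0.18) was at -0.032 under the stricter rule and -0.45 with free RNA subtracted.

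DESeq2 ended the calls of Cd226, Ifng and Itgam against T cells and of Klra4, Klrk1 and Gzmc against CD8 T cells, with no change of direction. Of the alternative values of named genes, 501 against T cells kept direction and call, 25 lost the call, 7 gained it and 13 changed sign.

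Not run was the fit of cells with against without Eomes, since each library had under 20 cells with Eomes. Free RNA subtraction against CD8 T cells was not run either, as the limit passed all UMIs of 1 library. Nor was 1 library left out of the fit of 2. The limits of depth are few cells and shallow libraries: 107 cells, 3 libraries, and a floor of 4.26 CPM in NK cells.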

Other observations

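Genes outside the lists, chosen here after their values were seen, also separated NK cells from T cells in edgeR's quasi-likelihood test. Other genes of the NK gene complex were higher. Klrb1a, a relative of NK1.1, was at 164, 65.2 and 122 CPM in NK cells and 0.58, 0 and 0.80 CPM in T cells. Klri2, which encodes a partner of the Klre1 receptor chain, was at 104, 177 and 128 CPM in NK cells and 0, 0 and 2.41 CPM in T cells. Styk1, a receptor-like kinase gene, was at 134, 118 and 128 CPM in NK cells and 2.30, 1.46 and 0 CPM in T cells (log2 fold change 6.44 ± 0.47). Serpinb9b, a relative of the granzyme inhibitor Serpinb9, was at 29.8, 80.7 and 50.1 CPM in NK cells and at 0 in T cells.

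A few higher genes have no known part in killing. Adamts14, which encodes a protease that trims procollagen, was at 169, 193 and 195 CPM in NK cells, against 4.03, 5.10 and 7.22 CPM in T cells (log2 fold change 5.12 ± 0.30, adjusted p = 9.1e-12). Car2, a carbonic anhydrase, was at 94.2, 168 and 156 CPM in NK cells, against 2.88, 5.10 and 0.80 CPM in T cells (5.48 ± 0.40). Spry2, an inhibitor of growth factor signalling, was at 49.6, 80.7 and 89.0 CPM in NK cells and 2.30, 1.46 and 0.80 CPM in T cells. Vegfc, a growth factor of lymphatic vessels, was at 24.8, 49.7 and 61.2 CPM in NK cells and 1.73, 2.19 and 4.01 CPM in T cells. The NK and T cell values did not overlap for any of these 4 genes, which were picked for large folds with the same direction in 3 libraries. Of all 604 called genes, 595 had the same direction in 3 libraries. The share of tested genes without overlap was not counted, for these or for the other genes above.

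The lower genes included those of regulatory T cells. Foxp3, their defining factor, had 0 UMIs in NK cells and 85.1, 59.0 and 89.1 CPM in T cells, and Tnfrsf4 (OX40) had 0 UMIs in NK cells and 316, 259 and 311 CPM in T cells. Penk, which encodes the opioid precursor proenkephalin, was at 4.96, 6.21 and 0 CPM in NK cells, against 69.0, 389 and 356 CPM in T cells (-5.99 ± 0.42).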
